A study of Mus musculus with 24 samples.

Results

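Macrophages of obese gonadal fat that carry CD11c were compared with those that do not, on 6 of the 24 arrays of the series. CD11c is the integrin alpha X chain, encoded by Itgax. The members are the 3 arrays of CD11c+ adipose tissue macrophages (ATM) and the 3 arrays of CD11c- ATM from mice on a high-fat diet (HFD), taken by their titles. Both populations came from male C57Bl/6 mice fed a 60% fat diet for a time not stated for this group, and both were sorted live from collagenase-digested gonadal fat. Each array held a pool of 3 to 4 mice. No allele, transgene or drug is named for any group, and no sorting marker other than CD11c is stated. The other macrophage groups used below were CD11c- ATM of mice on normal diet (ND, 2 arrays) and CD11c+ ATM (3 arrays) and CD11c- ATM (2 arrays) of weight-loss (WL) mice, kept on the HFD for 12 weeks and off it for the next 8 weeks. Dendritic cells (ATDC) and preadipocytes (PA) of the same fat gave reference levels. No CD11c+ ATM of ND mice were purified, per the series design.

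Fat tissue holds resident macrophages that are long-lived, take up debris and lie along vessels, and it gains macrophages from blood monocytes as it expands. CD11c marks macrophages that gather around dying adipocytes in obese fat, many of which carry lipid and express lysosomal and lipid-handling genes. Macrophages can also divide within the tissue, so cell division genes are one of the programmes that may differ between sorted populations.

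Values are log2 intensities after RMA, a background correction and quantile normalization of the arrays. A difference is the mean of the CD11c+ arrays minus that of the CD11c- arrays. It is given ± the standard error (SE) of a limma fit to all 24 arrays. That SE draws on the spread within all 9 groups, other cell types included, and can exceed the spread of the arrays compared. Cd68, for example, had standard deviations of 0.07 (CD11c+) and 0.05 (CD11c-) but an SE of 0.49. Of 15496 genes tested, 1 differed at a Benjamini-Hochberg adjusted p under 0.05 (0.00645%), and it was higher in CD11c+ ATM. None was lower. With limma's array weights in the same fit, 10 genes were called higher and 16 lower, among them E2f8, H2-M2, Ccl11, Cd209b, Cxcl12 and Lum, which are described below. At an unadjusted p under 0.05 there were 473 genes higher (3.05%) and 524 lower (3.38%). All 3 CD11c+ arrays lay above all 3 CD11c- arrays for 1722 genes (11.1%) and below them for 1022 genes (6.6%), and these shares are the background for every such count below. The median difference over all tested genes was 0.04. Across genes, the CD11c+ arrays correlated with each other at r = 0.974 to 0.982, above every pair of arrays from different groups (0.945 to 0.968). The CD11c- arrays correlated at 0.948 to 0.961, within the range between groups, so they varied more than the CD11c+ arrays. CD11c- replicate 1 correlated higher with each CD11c+ array (0.964 to 0.968) than with its own group (0.955 and 0.961).

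The single gene past the threshold was Klrb1b, an inhibitory lectin-like receptor best known from natural killer cells. Klrb1b read 5.31, 5.17 and 4.32 on the CD11c+ arrays and 1.85, 2.83 and 2.66 on the CD11c- arrays. The groups were well apart, and no CD11c- array put the gene above its own median. The difference was 2.49 ± 0.37 (95% interval 1.71 to 3.27, adjusted p = 0.032), and at least 1.86 when each CD11c- value was raised to its array's median. The call was lost without CD11c+ replicate 1 (adjusted p = 0.129), CD11c+ replicate 2 (0.121), CD11c- replicate 1 (0.0898) or CD11c- replicate 3 (0.0641), and also when the 6 arrays were fitted alone (0.395), when the 13 macrophage arrays were (0.627) and after a second quantile normalization (0.0551). The means of the other macrophage groups lay between those of the 2 HFD groups. ND CD11c- ATM read 3.94 and 3.31, WL CD11c+ ATM 3.23, 2.69 and 4.44, and WL CD11c- ATM 3.74 and 3.89. ATDC were the highest, at 7.97, 8.43 and 8.71 in HFD mice, and HFD PA were among the lowest, at 2.21 to 2.49. Signal shared with other Klrb1 family genes could not be separated here.

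Because Klrb1b was highest in ATDC, the dendritic cell markers are given beside it. Their summed level was 10.88 to 11.30 on the CD11c+ arrays, 10.82 to 10.87 on the CD11c- arrays and 12.49 to 12.93 in HFD ATDC. Of 19 dendritic cell markers, 3 lay above on all CD11c+ arrays and 2 below. Flt3, the growth factor receptor of dendritic cell precursors, read 4.88, 4.79 and 3.71 against 3.34, 3.49 and 2.92 (1.21 ± 0.29, adjusted p = 0.34). Cd24a, a surface glycoprotein named after its values were seen, read 8.91, 8.31 and 8.31 against 7.11, 4.75 and 7.03 (2.21 ± 0.74, adjusted p = 0.55), with a mean of 10.99 in HFD ATDC. Zbtb46, a transcription factor of conventional dendritic cells, read 4.59, 4.24 and 3.90 against 4.75, 4.78 and 4.69, so it was separated in the opposite direction. The 13 natural killer and innate lymphoid markers summed to 7.67 to 8.30 on the CD11c+ arrays and 7.67 to 8.22 on the CD11c- arrays. The part of either cell type in the Klrb1b difference was not tested.

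The 250 bases before the start site of Klrb1b are shown because it was the only gene called. They lie at chr6:128826316-128826565 on the minus strand of GRCm38.p6, and they and the promoters below are RefSeq entries. A second RefSeq start of the gene gives a largely overlapping window. The window held neither of the searched letters GAGGAAG (a PU.1 motif) and TGANTCA (an AP-1 motif) on either strand. These were found in 10.6% and 6.75% of all 32851 promoter windows of this length.

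Klrb1b: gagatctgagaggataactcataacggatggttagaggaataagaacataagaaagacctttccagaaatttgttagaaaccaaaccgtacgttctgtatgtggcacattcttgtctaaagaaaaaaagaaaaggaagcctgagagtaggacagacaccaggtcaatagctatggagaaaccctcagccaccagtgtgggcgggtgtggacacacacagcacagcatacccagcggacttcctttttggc

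**Figure D1:**
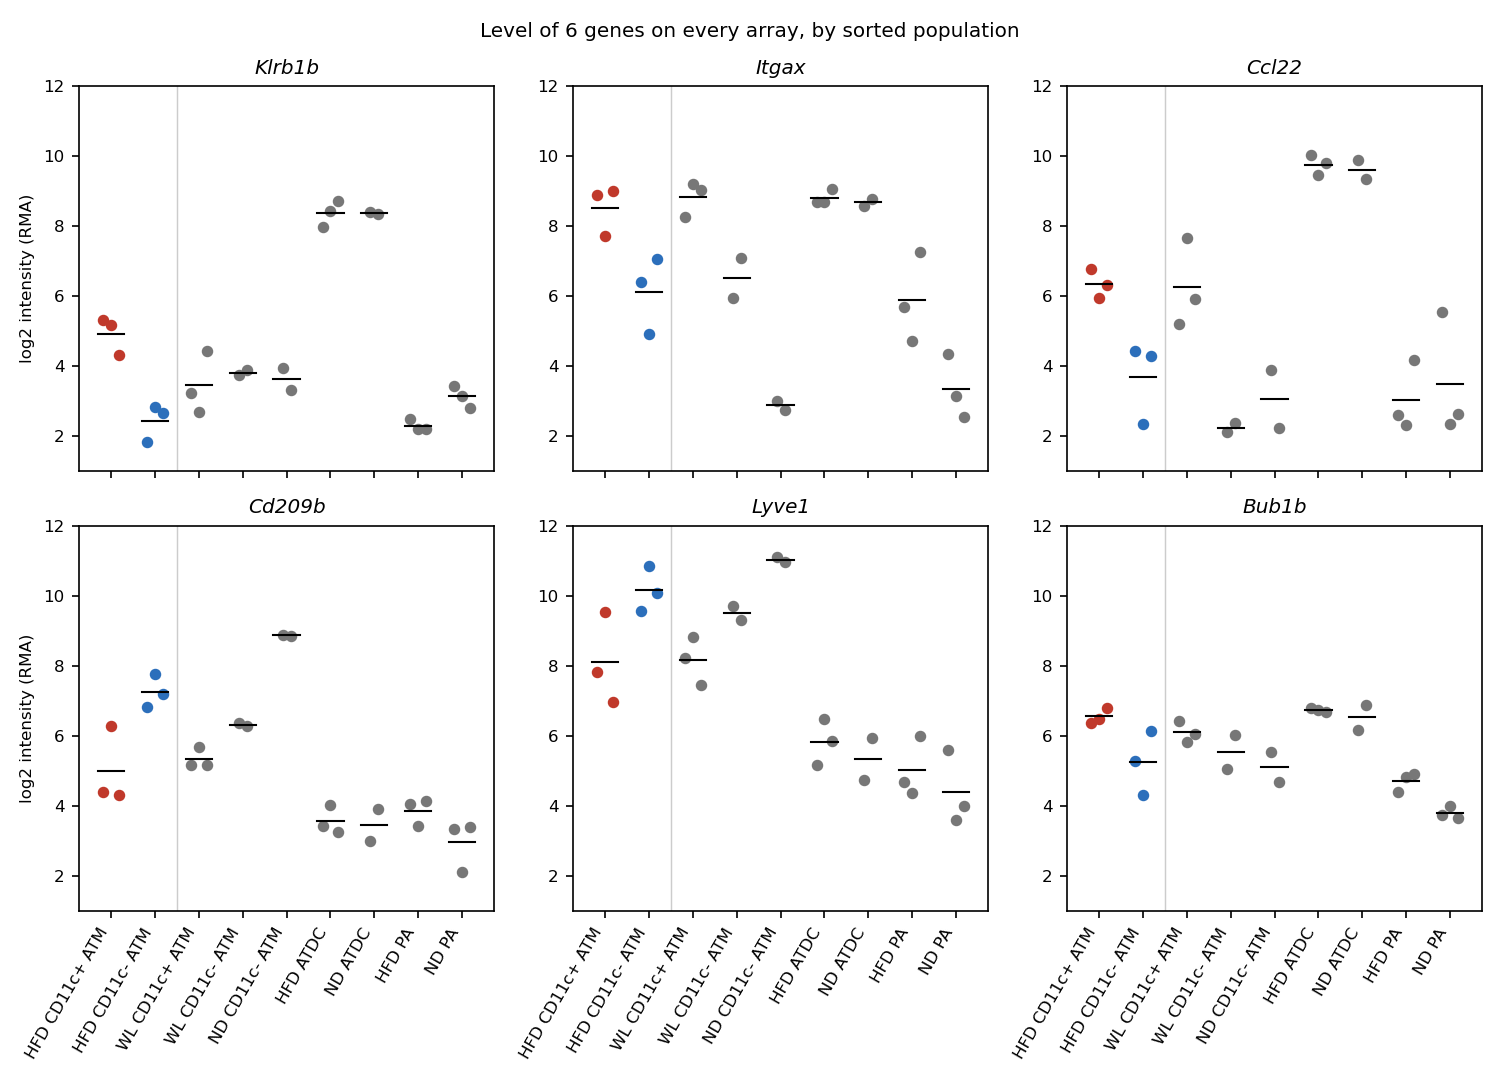
Log2 intensity of 6 genes (y axis, RMA) on each array of the 9 sorted populations (x axis); points are arrays, bars are group means, red and blue mark the CD11c+ and CD11c- ATM of HFD mice. Klrb1b, Itgax, Ccl22 and Bub1b lay higher on all 3 red points and Cd209b and Lyve1 lower; Klrb1b alone passed the adjusted threshold, and it was highest in ATDC.

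The sort itself was checked with Itgax. It read 8.89, 7.70 and 8.997 on the CD11c+ arrays and 6.40, 4.93 and 7.07 on the CD11c- arrays, a difference of 2.40 ± 0.60 that describes the sort and is no finding. The CD11c- arrays spread over more than 2 units, with replicate 2 lowest, and all lay above the ND CD11c- ATM (3.01 and 2.76). Adgre1, which encodes F4/80, differed by 0.18 ± 0.54, Cd68 by 0.10 ± 0.49 and Csf1r, the receptor for the macrophage growth factor, by -0.07 ± 0.55. Of 15 macrophage identity genes, Axl was separated upward (0.41 ± 0.27) and Cd163, described below with the resident genes, downward. The 15 genes summed to 13.82 to 13.99 on the CD11c+ arrays and 13.94 to 14.05 on the CD11c- arrays. The same sum was 12.49 to 13.37 in HFD ATDC and 11.29 to 12.58 in HFD PA. Every array thus carried the macrophage markers above the levels of those cells. A share of dendritic cells within the arrays was not measured by this sum.

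Preadipocyte and fibroblast genes differed between the arrays. The median level of 18 such genes was 6.67, 5.90 and 5.59 on the CD11c+ arrays and 6.79, 6.92 and 8.54 on the CD11c- arrays, against 9.89 to 10.23 in HFD PA. CD11c- replicate 3 stood apart as the highest. Summed, they reached 10.95 to 11.99 and 12.08 to 13.73, and of the members Dlk1 alone was above the median on none of the 6 arrays. In pooled sorted cells, fewer cells of a type and less RNA per cell cannot be told apart.

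Cell division genes formed the group with the largest share of separated members. Of 40 tested, 32 (80%) lay above on all CD11c+ arrays and 0 below, against 11.1% of all genes. All 40 differences were positive, with a median of 0.76, yet 0 passed the adjusted threshold and 17 had an unadjusted p under 0.05. The median level of the list was 6.42, 6.69 and 6.66 on the CD11c+ arrays and 5.83, 5.26 and 6.16 on the CD11c- arrays. CD11c- replicate 2 was the lowest, and the groups did not overlap. Without it the median difference was 0.57, and without CD11c- replicate 3 it was 0.89.

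Among the mitotic genes, the spindle checkpoint kinase gene Bub1b read 6.37, 6.49 and 6.79 against 5.28, 4.29 and 6.15. Its CD11c+ arrays were all higher, by 1.31 ± 0.36 on average (adjusted p = 0.40). Kif11, the spindle motor Eg5, read 6.43, 6.70 and 6.89 against 5.87, 4.32 and 5.92 (1.30 ± 0.47, adjusted p = 0.62). Top2a, which untangles DNA before division, read 7.60, 7.89 and 7.91 against 7.10, 5.78 and 7.36 (1.05 ± 0.46, adjusted p = 0.73). In each of these the CD11c- array of replicate 2 was far below the others. For DNA synthesis, the replicative helicase subunits Mcm2 to Mcm7 differed by 0.62 to 1.07, and all 6 were separated. E2f8, an E2F-family repressor that is itself made in dividing cells, was not on the list and was picked after its values were seen. It read 5.75, 5.55 and 5.64 against 3.39, 3.61 and 4.62 (1.77 ± 0.40, adjusted p = 0.31), with the tightest CD11c+ values of these genes. Mki67, the proliferation antigen Ki-67, overlapped at 7.71, 8.34 and 8.11 against 7.79, 6.75 and 7.94 (0.56 ± 0.41).

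The cell division list was lower in ND CD11c- ATM (median level 4.61 and 5.07) than on any of the 6 HFD arrays. It reached 6.56 to 6.75 in HFD ATDC, close to CD11c+ ATM, and 4.27 to 5.13 in HFD PA. The part of the ATDC and PA markers in the cell division difference was not tested.

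Promoters of cell division genes are shown because these genes lay higher together. RefSeq windows were found for 34 of the 40 genes, 36 windows in all. The CCAAT box, searched as CCAAT on both strands, was in 30 of them (83.3%) and in 33.8% of all windows. The cell cycle homology region, searched as TTTGAA on both strands, was in 10 (27.8%) and in 16% of all windows. An E2F motif, GCGGGAA on both strands, was in 5 (13.9%) against 3.82%. In the sequences, capitals mark CCAAT and TTTGAA or their complements. Top2a lies at chr11:99024190-99024439 on the minus strand, Bub1 at chr2:127831860-127832109 on the minus strand and Kif11 at chr19:37376132-37376381 on the plus strand of GRCm38.p6. Top2a held 6 CCAAT letters and 2 TTTGAA, Bub1 2 CCAAT, and Kif11 1 of each.

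Top2a: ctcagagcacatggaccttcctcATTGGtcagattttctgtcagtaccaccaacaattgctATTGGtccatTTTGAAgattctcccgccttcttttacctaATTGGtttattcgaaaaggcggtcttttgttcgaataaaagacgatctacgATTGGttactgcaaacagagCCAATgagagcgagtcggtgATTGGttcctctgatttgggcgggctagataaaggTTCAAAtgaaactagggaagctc

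Bub1: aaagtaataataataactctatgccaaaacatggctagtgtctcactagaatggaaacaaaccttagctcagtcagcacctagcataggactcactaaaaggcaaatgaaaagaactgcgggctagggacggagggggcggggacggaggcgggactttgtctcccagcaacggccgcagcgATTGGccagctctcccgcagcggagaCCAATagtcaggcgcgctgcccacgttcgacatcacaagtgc

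Kif11: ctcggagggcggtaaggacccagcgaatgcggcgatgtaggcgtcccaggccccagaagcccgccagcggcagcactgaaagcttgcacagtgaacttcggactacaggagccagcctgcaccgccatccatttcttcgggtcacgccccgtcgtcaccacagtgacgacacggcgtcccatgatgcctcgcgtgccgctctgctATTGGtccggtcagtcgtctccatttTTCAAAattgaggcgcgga

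**Figure D2:**
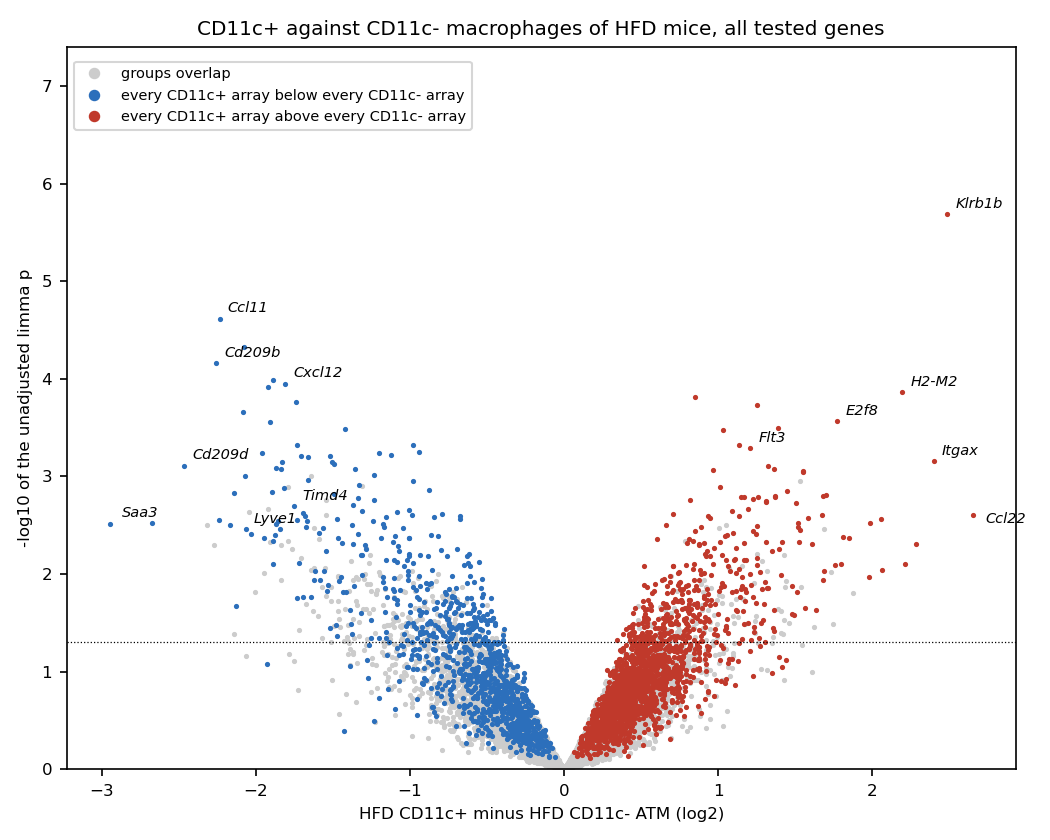
Difference between CD11c+ and CD11c- ATM of HFD mice (x axis, log2) against -log10 of the unadjusted limma p (y axis) for 15496 genes; red and blue points are genes whose 3 and 3 arrays do not overlap, and the dotted line is an unadjusted p of 0.05. Klrb1b stands highest; Ccl11, Cd209b and Cxcl12 are among the foremost of the lower genes.

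Genes of lipid-associated macrophages mostly lay higher in CD11c+ ATM by small amounts. Of 23 tested, 11 (47.8%) were separated upward and 1 downward, the median was 0.26, and 0 passed the adjusted threshold (3 at an unadjusted p under 0.05). Gpnmb, a glycoprotein of lysosome-rich macrophages, read 10.79, 10.35 and 11.12 against 9.53, 8.72 and 10.10 (1.30 ± 0.62, adjusted p = 0.77). The elastase gene Mmp12 read 9.55, 8.83 and 9.69 against 7.73, 7.08 and 8.69 (1.52 ± 0.45, adjusted p = 0.43). Its mean in HFD ATDC was 9.42, close to the CD11c+ mean of 9.35. Trem2, the lipid-sensing receptor that defines these cells, read 9.93, 9.65 and 9.91 against 9.41, 8.96 and 9.10, a separated but small difference of 0.68 ± 0.67. Its standard deviation was 0.15 on the CD11c+ and 0.23 on the CD11c- arrays, below that SE. Cd9 overlapped (1.12 ± 0.43), and the fatty acid carriers Fabp4 (0.05 ± 0.20) and Fabp5 (0.26 ± 0.22), the scavenger receptor Cd36 (0.11 ± 0.20) and the lipase Lpl (0.52 ± 0.26) overlapped too. The list median was 10.51, 10.45 and 10.56 against 10.36, 9.98 and 10.34. Both HFD populations were above ND CD11c- ATM (9.40 and 9.56), so the list was high with or without CD11c. Without CD11c- replicate 2 the list's median difference was 0.13. With each array centred on its median, 7 members (30.4%) were separated upward, against 8.52% of all genes, and 0 downward.

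Lysosomal genes also lay mostly higher in CD11c+ ATM. Of 35 tested, 15 (42.9%) were separated upward and 4 (11.4%) downward, with a median of 0.23 and 0 past the adjusted threshold (5 higher at an unadjusted p under 0.05). The proton pump, which acidifies the lysosome, gave the highest member: its subunit gene Atp6v0d2 read 10.04, 9.87 and 10.28 against 9.31, 7.79 and 9.01 (1.36 ± 0.60, adjusted p = 0.73). Its other separated subunits Atp6v0a1, Atp6v1a, Atp6v1b2, Atp6v1c1 and Atp6v1h differed by 0.51 to 0.64. Among the hydrolases, the glycolipid-cleaving enzyme gene Gla (0.73 ± 0.31) and Gusb, beta-glucuronidase (0.65 ± 0.29), were separated upward. The cathepsins went both ways, Ctsl at 0.46 and Ctsz at 0.55 upward and Ctsc at -0.36 and Ctsh at -0.26 downward. With each array centred on its median, 11 members were separated upward and 1 downward. Acp5, an acid phosphatase of osteoclasts and chosen after its values were seen, read 7.69, 7.67 and 8.15 against 6.46, 5.96 and 6.98 (1.37 ± 0.37, adjusted p = 0.40).

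The E-box bound by the lysosomal regulators of the MiT/TFE family was searched as TCACGTG on both strands. It was in 9 of 31 windows (29%) of the 28 lysosomal genes that had one, and in 3.13% of all windows. Gla is shown as an example, at chrX:134601006-134601255 on the minus strand of GRCm38.p6, with the matches in capitals.

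Gla: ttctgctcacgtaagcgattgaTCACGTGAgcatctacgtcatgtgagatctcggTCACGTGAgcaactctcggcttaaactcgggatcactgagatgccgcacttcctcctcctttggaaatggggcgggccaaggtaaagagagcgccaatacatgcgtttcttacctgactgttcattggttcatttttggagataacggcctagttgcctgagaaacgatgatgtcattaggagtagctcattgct

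Lipid storage and sterol genes gave smaller shares. Of 27 genes of lipid uptake, storage and efflux, 7 (25.9%) were separated upward, among them the cholesterol exporter Abcg1 (0.89 ± 0.31) and the triglyceride lipase Pnpla2 (0.97 ± 0.44), which were named after their values were seen. Abca1, the other cholesterol exporter, overlapped (-0.14 ± 0.24). Of the nuclear receptors that govern this pathway, Pparg read 8.57, 8.76 and 8.79 against 8.27, 7.75 and 8.12 (0.66 ± 0.26, adjusted p = 0.67) and Nr1h3 differed by 0.74 ± 0.32. Of 22 sterol and fatty acid synthesis genes 4 (18.2%) were separated upward and 1 downward. For glycolysis and the hypoxia response, 5 of 23 (21.7%) lay above, led by the glucose transporter Slc2a1 at 7.07, 6.59 and 7.24 against 6.51, 5.29 and 6.18 (0.98 ± 0.31, adjusted p = 0.48). None of these 3 lists, nor 27 respiratory chain subunits (3 upward, median 0.10), held a gene past the adjusted threshold.

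Genes of resident macrophages lay lower in CD11c+ ATM. Of 26 tested, 15 (57.7%) were separated downward, against 6.6% of all genes, 0 upward, and the median was -1.03. None passed the adjusted threshold and 12 had an unadjusted p under 0.05. Lyve1, the hyaluronan receptor of perivascular macrophages, read 7.82, 9.53 and 6.96 against 9.57, 10.85 and 10.08 (-2.07 ± 0.62, adjusted p = 0.43). CD11c+ replicate 2 came close to the lowest CD11c- array. Timd4, a receptor for dying cells, read 4.93, 5.62 and 3.27 against 6.17, 7.14 and 5.78 (-1.75 ± 0.49, adjusted p = 0.42). The haemoglobin scavenger receptor Cd163 read 7.91, 9.03 and 7.26 against 9.21, 10.07 and 9.25 (-1.44 ± 0.51, adjusted p = 0.59). In all 3 genes replicate 2 was the highest of its group on both sides.

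Of the 26 differences 25 were negative, but not all resident genes were separated. Folr2 (-0.39 ± 0.54), Mrc1 (-0.32 ± 0.55), which encodes the mannose receptor, and the growth factor Igf1 (-0.04 ± 0.25) overlapped. The Cd209 lectins, related paralogues, were among the largest: Cd209b read 4.40, 6.29 and 4.31 against 6.81, 7.77 and 7.19 (-2.26 ± 0.45, adjusted p = 0.26). Cd209d differed by -2.47 ± 0.62 and Cd209g by -2.68 ± 0.79. The leukotriene C4 synthase gene Ltc4s differed by -2.17 ± 0.64 and the endothelin receptor gene Ednrb by -2.03 ± 0.62. The list's median level was 8.61, 9.06 and 8.10 on the CD11c+ arrays, 9.20, 10.07 and 9.25 on the CD11c- arrays and 10.34 and 10.43 in ND CD11c- ATM, so the order was ND, CD11c-, CD11c+ without overlap. In HFD PA it was 4.79 to 6.07 and in HFD ATDC 5.85 to 7.16, both lower than in the macrophages. What dendritic cell or preadipocyte RNA gave to the resident gene difference was not tested. Without CD11c+ replicate 3 the median difference was -0.60, and without CD11c- replicate 2 it was -0.65. With each array centred on its median, 10 members (38.5%) were separated downward, against 6.84% of all genes.

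**Figure D3:**
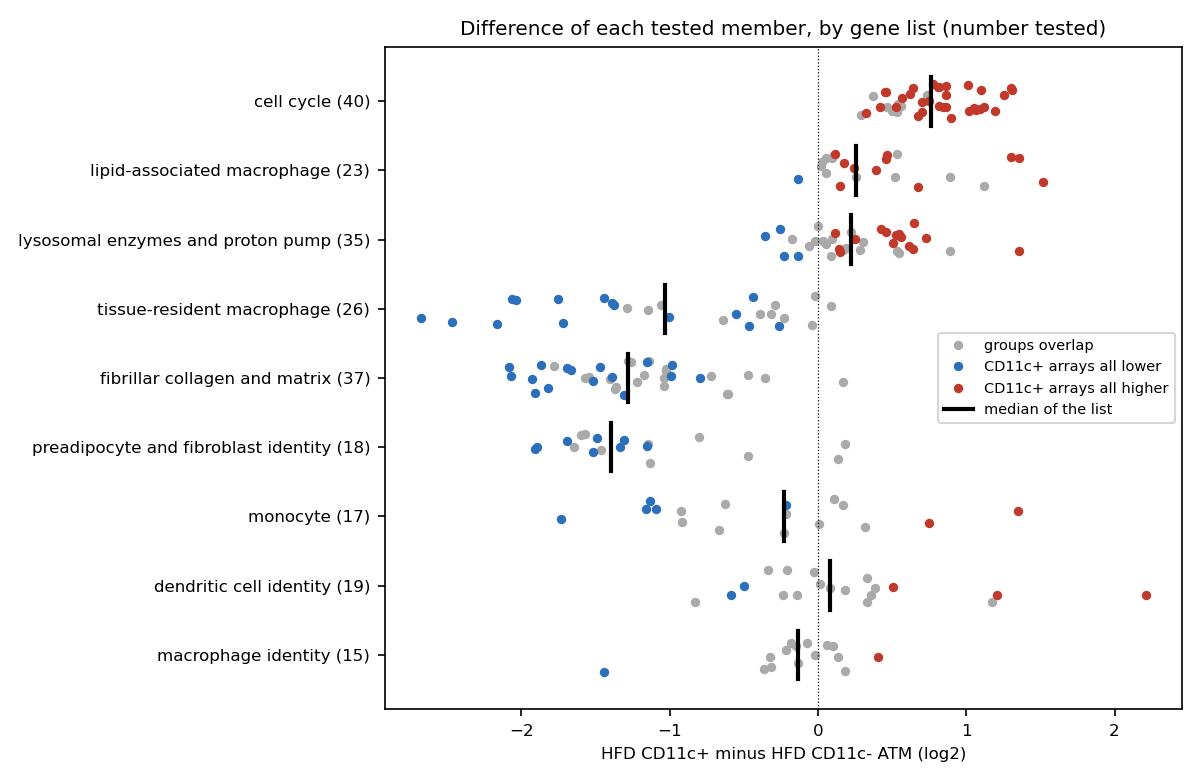
Difference between CD11c+ and CD11c- ATM of HFD mice (x axis, log2) for each tested member of 9 gene lists (y axis, number tested in brackets); red and blue points are members whose arrays do not overlap, grey points overlap and black bars are list medians. The cell cycle members all lie right of 0 (median 0.76), while resident macrophage (-1.03), matrix (-1.28) and preadipocyte (-1.40) members lie mostly left.

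Matrix genes were lower in CD11c+ ATM along with the preadipocyte markers. Of 37 tested, 16 (43.2%) were separated downward and 0 upward, 36 differences were negative and the median was -1.28. None passed the adjusted threshold and 23 had an unadjusted p under 0.05. Lum, the collagen-binding proteoglycan lumican, read 8.10, 7.22 and 6.85 against 9.11, 8.32 and 10.46 (-1.91 ± 0.43, adjusted p = 0.31). Col3a1, a fibrillar collagen chain, read 6.77, 5.99 and 5.85 against 7.12, 7.32 and 9.25 (-1.70 ± 0.48). Postn, the matrix protein periostin, read 7.80, 6.59 and 6.96 against 8.59, 7.86 and 10.36 (-1.82 ± 0.48). CD11c- replicate 3 was the highest in each, and without it the list's median was -0.66. The preadipocyte list, which shares collagens with it, had 8 of 18 (44.4%) separated downward with a median of -1.40, and a median of -0.71 without that array. In HFD PA these genes were far higher, Lum at a mean of 11.42 and Col3a1 at 10.64, and in ND CD11c- ATM they were lower, at 5.53 and 4.36. The part of preadipocyte RNA in the matrix difference was not tested.

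Chemokine genes were split by ligand. Of 26 tested, 2 (7.69%) were separated upward and 6 (23.1%) downward. Upward were the CCR4 ligands. Ccl22 read 6.78, 5.94 and 6.31 against 4.43, 2.35 and 4.30, the largest positive difference of any tested gene (2.65 ± 0.76, adjusted p = 0.43). Ccl17 differed by 1.41 ± 0.79. Both were higher still in HFD ATDC, at means of 9.76 and 8.39. Downward, the eotaxin gene Ccl11, which attracts eosinophils, read 6.65, 5.45 and 5.24 against 7.74, 7.28 and 9.03 (-2.24 ± 0.41, adjusted p = 0.19). Cxcl12, which retains CXCR4-bearing cells, read 5.59, 5.38 and 4.81 against 6.53, 7.30 and 7.38 (-1.81 ± 0.37, adjusted p = 0.26). Their means in HFD PA were 10.97 and 9.28. The monocyte attractants Ccl2, at 9.14, 9.83 and 9.38 against 10.21, 10.23 and 10.05 (-0.71 ± 0.42), and Ccl7 (-1.54 ± 0.58) were also separated downward, as was Ccl24 (-1.84 ± 0.55), which was named with Ccl7, Ccl11, Ccl17, Ccl22 and Cxcl12 after values were seen.

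The classical inflammatory cytokines did not separate the populations. Il1b read 4.94, 5.13 and 4.69 against 4.87, 5.07 and 4.56 (0.09 ± 0.37, 95% interval -0.70 to 0.87). Tnf read 7.28, 6.97 and 7.17 against 7.32, 6.76 and 6.57 (0.26 ± 0.37, interval -0.52 to 1.03). Both genes overlapped between the groups. Il6 was above the array median on 0 of 3 CD11c+ and 1 of 3 CD11c- arrays. Nos2, the inducible nitric oxide synthase of classically activated macrophages, read 2.97, 3.09 and 3.11 against 3.16, 2.94 and 3.10 (-0.01 ± 0.21). The medians of these arrays were 2.96 to 3.10. Nos2 thus lay near background on both sides, so its difference cannot show whether the populations were alike in classical activation. Arg1, the arginase of alternatively activated macrophages, differed by 0.67 ± 0.47 with overlap. Of 23 cytokine and mediator genes, 4 (17.4%) were separated upward and 3 (13%) downward. Of 20 IL-4 response genes, 3 (15%) were separated upward and 5 (25%) downward, with a median difference of -0.38. The shares of all genes were 11.1% and 6.6%. The acute-phase gene Saa3, chosen after its values were seen, had the largest negative difference of any tested gene: it read 7.52, 5.41 and 4.77 against 10.22, 7.76 and 8.57 (-2.95 ± 0.87, adjusted p = 0.43). Its spread within each group exceeded 2 units, and its mean in HFD PA was 8.33.

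MHC class II and antigen processing genes were separated at shares near those of all genes. H2-Ab1, an MHC class II chain, differed by -0.10 ± 0.60, and Ciita, the class II regulator, by 0.14 ± 0.27. Of 14 class II genes 2 (14.3%) were separated upward and 1 (7.14%) downward, against 11.1% and 6.6% of all genes. The costimulatory ligand gene Cd86 lay lower, at 8.20, 8.22 and 7.69 against 8.95, 8.87 and 8.38 (-0.70 ± 0.27, adjusted p = 0.66). H2-M2, a non-classical class I gene chosen after its values were seen, read 5.97, 4.93 and 6.01 against 3.38, 3.12 and 3.82 (2.20 ± 0.46, adjusted p = 0.26), a gap of more than 1 unit between the groups. It was higher still in HFD ATDC, at a mean of 6.86.

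Monocyte genes lay lower more often than higher in CD11c+ ATM, with 11 negative and 6 positive differences. Ly6c2, a surface marker of newly arrived monocytes, read 6.68, 6.49 and 5.80 against 7.52, 7.30 and 7.43 (-1.09 ± 0.46, adjusted p = 0.72). The CD11c+ arrays were all lower. Plac8, another monocyte gene, differed by -1.16 ± 0.34, whereas the chemokine receptor genes Ccr2 (-0.23 ± 0.65) and Cx3cr1 (-0.21 ± 0.51) overlapped. Of 17 monocyte markers 2 (11.8%) were separated upward and 5 (29.4%) downward, against 11.1% and 6.6% of all genes. The CCR2 gene read at least 9.20 on every array of both populations. In HFD PA the mean of Plac8 was 8.35, above both populations, and that of Ly6c2 was 7.38, near the CD11c- mean of 7.41. Ccr2 (5.67) and Cx3cr1 (5.18) were lower in HFD PA than in either population. What preadipocyte RNA gave to the Plac8 and Ly6c2 differences was not tested.

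**Figure D4:**
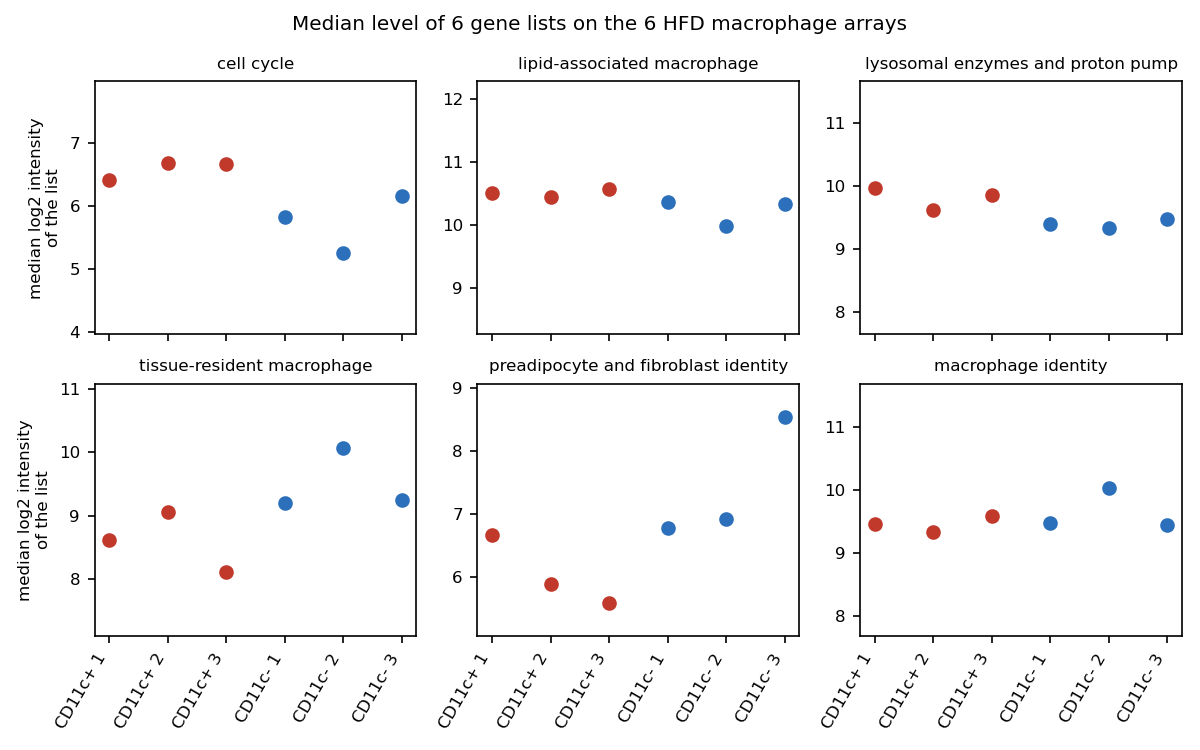
Median log2 intensity of 6 gene lists (y axis, each panel spanning the same number of log2 units) on the 3 CD11c+ (red) and 3 CD11c- (blue) ATM arrays of HFD mice (x axis). Cell cycle and lysosomal medians are higher on all red points, the resident macrophage and preadipocyte medians lower, CD11c- replicate 3 stands out at 8.54 in the preadipocyte panel, and macrophage identity genes overlap.

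RNA handling was looked at with 30 immediate early and dissociation stress genes. Their median level was 6.91, 7.30 and 7.01 on the CD11c+ arrays and 7.68, 7.65 and 7.72 on the CD11c- arrays. The groups did not overlap, 5 members were separated upward and 8 (26.7%) downward, and the median difference was -0.26. Fosb read 6.84, 8.15 and 7.46 against 8.27, 8.93 and 8.24, and Socs3, a feedback inhibitor of cytokine signals, 7.30, 7.09 and 7.19 against 7.97, 7.94 and 8.05. The part of tissue handling in the other differences was not tested.

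Whether the CD11c difference of obese mice differed from that after weight loss was tested as an interaction, the HFD difference minus the WL difference, on arrays the comparisons do not share. It was called for 25 genes (0.161%), 22 positive (0.142%) and 3 negative (0.0194%). Klrb1b was the only one of them whose HFD difference was itself called: its WL difference was -0.36 ± 0.42, and the difference of differences was 2.85 ± 0.56 (adjusted p = 0.041). Among the positive genes were 6 mast cell genes that were low on all 6 HFD arrays, and also 2 immunoglobulin kappa variable segments (5.62 ± 1.01 and 4.19 ± 0.76), which the naming rule passed over. Of the mast cell genes, Tph1, Tpsab1 and Hdc lay above the array median on none of the 6 HFD arrays. A gene can pass the filter through the 2 WL CD11c- arrays alone. For genes so low in HFD mice the interaction restates the WL CD11c- level and describes no CD11c difference in obese fat. Tph1, the serotonin-making hydroxylase, read 1.72 to 2.28 on the HFD CD11c+ and 2.06 to 2.67 on the HFD CD11c- arrays, but 7.78 and 7.25 on the WL CD11c- arrays. Tpsab1, a mast cell tryptase, and Hdc, which makes histamine, had HFD differences of -0.04 ± 0.36 and -0.39 ± 0.37 and WL differences of -4.49 ± 0.40 and -3.99 ± 0.41. The 14 mast cell markers had a median level of 2.20 to 3.61 on the 6 HFD arrays and 7.39 and 8.00 on the WL CD11c- arrays, and 6 of them were called in the interaction. Summed, they reached 6.28 to 8.27 on the HFD CD11c+ and 6.36 to 9.92 on the HFD CD11c- arrays. Lgi2 was negative, with an HFD difference of -2.08 ± 0.40 (adjusted p = 0.24) and a WL difference of 0.94 ± 0.44.

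The count rested on single arrays. Positive calls numbered 12 without CD11c+ replicate 1, CD11c+ replicate 2 or CD11c- replicate 2 of the HFD mice, 13 without HFD CD11c- replicate 3 and 14 without WL CD11c+ replicate 3. They numbered 41 without WL CD11c- replicate 1 and 53 without WL CD11c- replicate 2. Negative calls were 0 without any of the 3 HFD CD11c+ arrays or HFD CD11c- replicates 2 and 3, and 11 and 10 without WL CD11c- replicates 1 and 2. The Klrb1b interaction stayed past the threshold only without HFD CD11c+ replicate 3 (adjusted p = 0.031) or WL CD11c+ replicate 3 (0.0028), of the 11 arrays left out in turn. It was also lost with array weights (adjusted p = 0.195), in the 13 macrophage arrays (0.334), without the filter on low genes (0.0501), with a stricter one (0.0695) and after a second quantile normalization (0.0520).

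Besides the mast cell list, the stress, endothelial and natural killer lists each had 1 positive call, Fosl2, Robo4 and Gzmb, and the remaining lists had 0. For the genes and lists that follow, both differences are given side by side. Itgax differed by 2.40 ± 0.60 in HFD and 2.30 ± 0.67 in WL mice. The cell division list had medians of 0.76 and 0.56, the lysosomal list 0.23 and 0.39, the lipid-associated list 0.26 and 0.31 and the resident list -1.03 and -0.40. Lyve1 differed by -2.07 ± 0.62 and -1.35 ± 0.69. Ccl22, at 2.65 ± 0.76 in HFD mice, differed by 4.02 ± 0.85 in WL mice, where it passed the threshold (adjusted p = 0.024). The 2 WL CD11c- arrays read it at 2.12 and 2.37, below their medians of 3.13 and 3.12. HFD CD11c- replicate 2, at 2.35, was also below its median of 3.10. Differences from values so low are uncertain in size. For Ccl22 the difference of differences was -1.37 ± 1.14 (95% interval -3.76 to 1.02). Il1b differed by 0.09 ± 0.37 and -1.43 ± 0.42, with a difference of differences of 1.52 ± 0.56 that missed the threshold (adjusted p = 0.54).

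**Figure D5:**
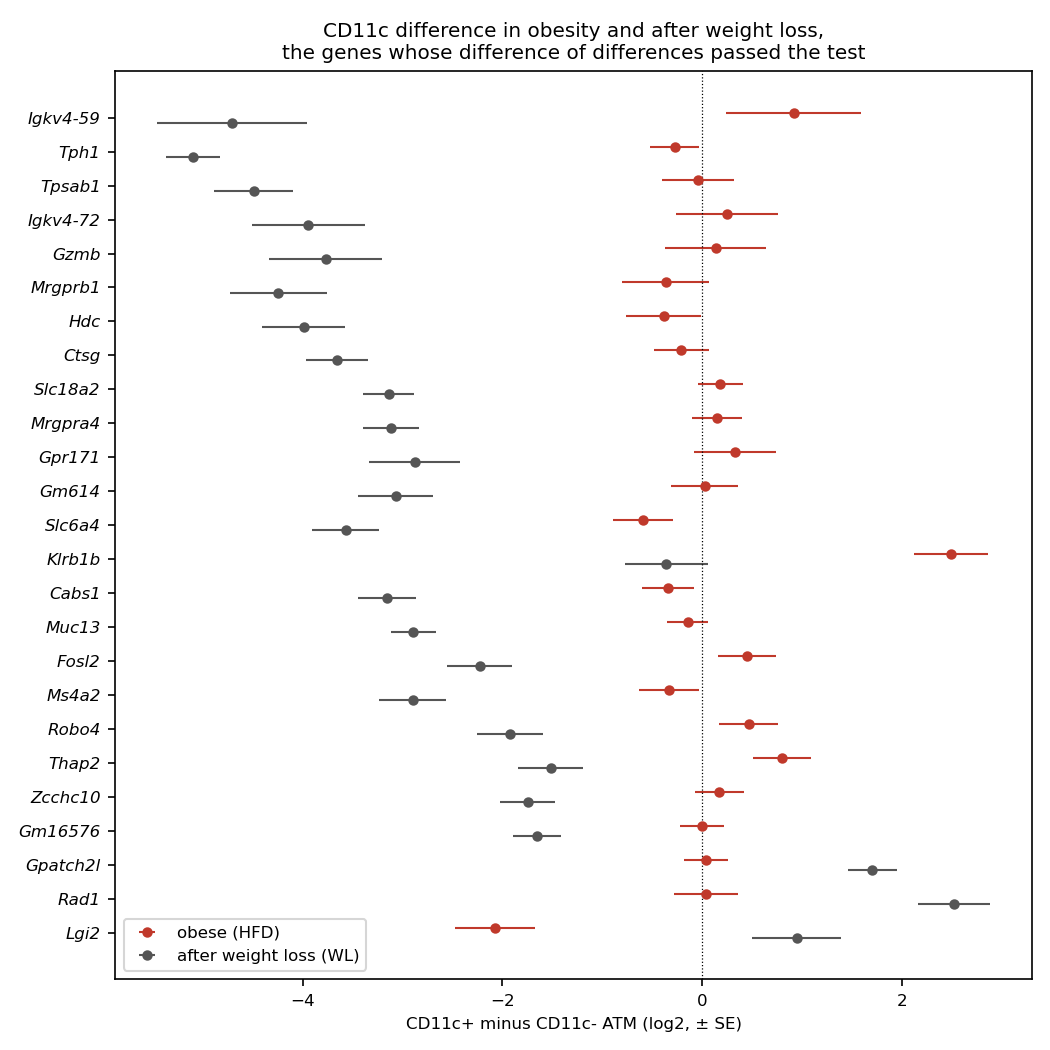
CD11c+ minus CD11c- difference (x axis, log2, ± SE) in HFD (red) and WL mice (grey) for the 25 genes (y axis) whose difference between the diets passed the adjusted threshold. Klrb1b has the highest HFD difference, 2.49, and a WL difference near 0, while the mast cell genes sit near 0 in HFD mice and between -5.09 and -2.90 in WL mice.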

How the data were processed

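Whole-transcript cDNA was amplified with a NuGEN kit, biotin-labelled and read on 1-colour arrays, per the labels' protocols. The authors deposited log2 intensity values, and the submitters' processing notes name RMA, oligo and limma without versions or settings. Scanner files were not used here, so an array's median stood in for background. The number of arrays limits the precision.

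Of 41345 probe rows, 23521 had 1 gene symbol, 1814 several and 16010 none given here. Each of the 22180 genes was represented by its single-symbol row with the highest mean over 24 arrays, and tested if at least 2 arrays put it above their median. Limma 3.58.1 in R 4.3.3 was fitted to all 24 arrays with 1 mean per group (15 residual degrees of freedom, no replicate block), two-sided, with Benjamini-Hochberg adjustment over 15496 genes. The code was tested on simulated data. Same-numbered arrays were not taken as pairs. P-values measure the spread between arrays within groups, taken over all 9 groups and not over the HFD macrophage pools alone. The 40 gene lists and the 42 key genes (40 tested) were chosen with earlier results of these data known, so lists are described by counts and medians. Named are genes past the threshold with non-overlapping arrays, the key genes and up to 5 interaction genes per direction; others were chosen after their values were seen. Alternatives changed the arrays fitted, the block, weights, eBayes options, filter, scaling, probe rows and replicates.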

Additional observations from a re-analysis of the deposited data

Results flagged for a closer look

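The CD11c difference in HFD mice differed from that in WL mice by the limma interaction for 25 genes, and those named by rule are listed here with the HFD difference minus the WL difference. The positive ones were Tph1 (4.82), Tpsab1 (4.45), Gzmb (3.90), Mrgprb1 (3.88) and Hdc (3.60), whose levels were low in both HFD populations and high in WL CD11c- ATM. Tph1, Tpsab1 and Hdc lay above the array median on none of the 6 HFD arrays, so their values restate the WL CD11c- level. The negative ones were Lgi2 (-3.02), Rad1 (-2.48) and Gpatch2l (-1.66). For Rad1, a DNA damage checkpoint gene, and Gpatch2l the HFD differences were 0.04 ± 0.32 and 0.03 ± 0.22, and the WL CD11c- ATM, with means of 3.31 and 5.31, lay lowest of the 4 groups. Klrb1b (2.85) was the one gene whose difference was called in HFD mice.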

How the results depend on the processing

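The limma fit called 1 gene higher and 0 lower. With the 6 arrays alone, the 13 macrophage arrays alone, or a second quantile normalization, 0 were called higher; with array weights 10 higher and 16 lower. Whether same-numbered pools came from the same mice is not stated. Same-numbered arrays correlated at 0.01, 0.25 and 0.02 in their deviations from group means, and the replicate 2 pair was the highest of all pairs. Of 6 arrays, 2 correlated best with their own number. With 3 arrays a group, these values cannot show whether the pools were paired. With the replicate number as a block, 0 genes were called higher in the fit of 24 arrays (Klrb1b adjusted p = 0.0598) and 0 in that of 6 arrays (0.254), and the interaction gave 1 negative call (Klrb1b adjusted p = 0.0641). Leaving out each array gave 0 to 1 genes higher and 0 to 2 lower: Cd209b without CD11c+ replicate 2, Ccl11 and Fap without CD11c- replicate 2, and Padi4 without CD11c- replicate 3. The interaction, 22 positive and 3 negative, gave 11 and 0 in the 13 macrophage arrays and 0 and 0 when 3 of the 6 HFD arrays had to exceed the median; leaving out arrays gave 12 to 53 positive and 0 to 11 negative. Of 1750 gene values over 103 genes and 17 settings, 1716 kept direction and side of the threshold, 8 became called, 9 lost the call and 17 changed sign. Klrb1b alone was called to begin with, so every other gene kept its side by staying uncalled, and the count is no measure of robustness. All 9 lost calls were those of Klrb1b, which was called in 8 of the 17 settings. The values that changed sign were small differences. Fabp4 was -0.000247 with array weights and -0.0080 when arrays were centred, and Nos2 was 0.075 after the second quantile normalization. Over the arrays left out in turn the ranges were -0.066 to 0.13 for Fabp4, -0.072 to 0.041 for Nos2, -0.36 to 0.84 for Dpp4, -0.049 to 0.21 for Il1b, -0.078 to 0.36 for Ciita, -0.097 to 0.042 for Igf1, -0.42 to 0.017 for Cx3cr1, -0.57 to 0.30 for Il6 and -0.13 to 0.017 for Csf1r. With each array centred on its median, members separated upward went from 8 to 5 of the myeloid transcription factors and from 5 to 3 of the stress genes, and downward from 5 to 3 of the IL-4 response genes, from 2 to 4 of the matrix proteases and from 5 to 8 of the TGF-beta genes; the matrix list had 21 downward. The 3 to 3 design and pooled mice limit what a test can call.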

Other observations

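Several genes not described above were separated between the populations; all were chosen after their values were seen, and none passed the adjusted threshold of the limma fit. In CD11c+ ATM the protease gene Adam8 read 8.85, 8.41 and 9.06 against 7.39, 6.27 and 7.55 (1.70 ± 0.46, adjusted p = 0.40). Dcstamp, a cell fusion gene of osteoclasts, read 5.83, 4.18 and 5.86 against 4.10, 2.95 and 3.77 (1.68 ± 0.46, adjusted p = 0.40). The interleukin-7 receptor gene Il7r read 8.81, 8.62 and 9.53 against 7.38, 7.07 and 7.81 (1.57 ± 0.63, adjusted p = 0.68). Each was as high in HFD ATDC as in CD11c+ ATM or nearly so, at means of 8.48, 6.03 and 8.50. F10, coagulation factor X and 1 of the 2 monocyte markers separated upward, differed by 1.35 ± 0.44, and Pdgfb, a growth factor for mural cells and fibroblasts, by 1.15 ± 0.43.

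In the opposite direction, complement genes were separated downward: C4b read 7.96, 8.37 and 6.80 against 8.91, 9.77 and 9.13 (-1.56 ± 0.47, adjusted p = 0.43), and Cfb read 6.92, 6.97 and 5.88 against 7.51, 7.83 and 8.04 (-1.20 ± 0.29, adjusted p = 0.34). Of 21 Fc receptor and complement genes 6 (28.6%) were separated downward and 1 upward. Timp1, the metalloproteinase inhibitor, read 6.03, 6.31 and 6.20 against 6.79, 7.47 and 9.16 (-1.62 ± 0.58, adjusted p = 0.60), with CD11c- replicate 3 far above the rest. In HFD PA the means of C4b, Cfb and Timp1 were 9.89, 9.52 and 10.12.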
